A study of Arabidopsis thaliana and Zea mays with 822 samples.

Results

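FWA gRNA1 is a guide RNA for the compact nuclease CasΦ that matches the promoter of the Arabidopsis gene FWA just before the start of transcription. All edited amplicon libraries of this guide and the controls sequenced beside them were taken, 37 of the 822 samples of the series, and 29 of the 37 were edited and 8 were controls. The study transfected mesophyll protoplasts, leaf cells freed of their walls, taken from Columbia-0 (Col-0) and fwa-4 plants at 3-4 weeks. It sequenced the target as 1 amplicon per library. The enzymes were nCasΦ, vCasΦ and WTCasΦ, the unmodified CasΦ-2, and the genotypes were fwa-4, an epimutant, and Col-0, the wild type.

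The libraries come from 5 experiments. In the RNP experiment with 3 enzymes, fwa-4 protoplasts received purified enzyme with guide RNA as a ribonucleoprotein (RNP), with 4 libraries each for nCasΦ, vCasΦ and WTCasΦ and 1 scramble guide control for each enzyme. In the plasmid experiments, the UBQ10 promoter drove the enzyme and the U6 promoter drove the guide. They held 2 libraries per enzyme and 1 control in fwa-4, and the same number in Col-0. The RNP experiment with 2 genotypes held 2 edited libraries and 1 control of fwa-4 and 2 edited libraries and 1 control of Col-0. Its labels name neither enzyme nor delivery, which the study's methods give as WTCasΦ RNPs. The last experiment was 1 WTCasΦ RNP library with 1 control, called the first RNP library here. Its labels give wild type plants while the study's text gives fwa-4, so it entered no comparison of genotypes. The labels do not say that replicates were separate transfections, so p-values measure the spread between these libraries, which may be technical.

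CasΦ is a small nuclease found in large bacteriophages. It binds DNA at a short T-rich motif, the protospacer adjacent motif (PAM), that stands before the 20 bases paired with the guide, the protospacer. It cuts the strands at different places, which leaves 5′ overhangs, and end joining by the cell then often loses bases around the cut. nCasΦ and vCasΦ carry engineered changes in a helix that lies in the path of the target strand. FWA encodes a homeodomain protein that delays flowering when it is expressed outside the endosperm. Its promoter repeats carry DNA methylation and the gene is silent in adult Col-0 tissue, whereas in fwa-4 the promoter is unmethylated and the gene is expressed.

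The single-nucleotide variants in the pattern labels name substituted bases. The base never named at a position was taken as the reference base, and these bases placed the site on the plus strand of chromosome 4. The spacer in the guide list, as extracted from the study's supplement, differed from that site. It had 0 exact matches on either strand of the TAIR10.1 genome, so the protospacer was placed from the labels. The forward and reverse cloning primers for this guide in the same supplement do carry the placed protospacer. In the TAIR10.1 assembly the protospacer is chr4:13038338-13038357 and the PAM chr4:13038335-13038337. The site is upstream of FWA (AT4G25530, chr4:13038360-13042464, plus strand, 10 exons): its last base lies 3 bp before the annotated gene start, and the coding sequence begins only at 13039312. The amplicon, from the stated primers, is chr4:13038161-13038404 (244 bp). The protospacer occurs once more with the same PAM, 211 bp downstream at chr4:13038549-13038568, in exon 2 of FWA. The amplicon ends 144 bases before this copy, so edits there were not read, and an allele that lost the stretch between the copies would have no right primer site. Both copies are shown with 7 bases after the protospacer, because the protospacer sequence is the same in both, with the protospacer in capitals.
First copy, chr4:13038335-13038364: ttaTCCCATTCAACATTCATACGagcgccg
Second copy, chr4:13038546-13038575: ttaTCCCATTCAACATTCATACGagcaccg

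Deletions are named as in the files by the first deleted position, the length and the letter D. Position 1 of these labels is base 19 of the protospacer, there is no position 0, and -5:10D is therefore a deletion of 10 bp that begins at protospacer base 14. Below, positions are counted as site bases from the first protospacer base, so that base 23 is the first base of the gene. The alleles shown are the 3 most abundant, the most abundant of the short deletions, and 3 that led a library or were counted in Col-0, all in the window chr4:13038335-13038364 with the deleted bases in capitals.
-5:10D: ttatcccattcaacatTCATACGAGCgccg
-4:8D: ttatcccattcaacattCATACGAGcgccg
-6:11D: ttatcccattcaacaTTCATACGAGCgccg
-4:4D: ttatcccattcaacattCATAcgagcgccg
-2:8D: ttatcccattcaacattcaTACGAGCGccg
-6:12D: ttatcccattcaacaTTCATACGAGCGccg
-5:7D: ttatcccattcaacatTCATACGagcgccg

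Depth was 1851717 to 4057040 reads per library, so counting error was small beside the spread between libraries. The Wilson 95% interval of the lowest efficiency above 0, 0.0301%, was 0.0282% to 0.0322%. Amplicon reads carry no molecular identifiers, and intervals cover counting error only. Editing efficiency is the percentage of a library's reads whose pattern holds an indel (insertion or deletion) no shorter than 3 bp and was read 100 times or more. It was 0 in all 8 controls. The study set this criterion after assessing its control samples, so the 0 in controls is not an independent check. Without a read minimum, site indels of 3 bp or more made up 11 to 193 reads of a control, 0.000369% to 0.00620%, and -5:10D had 0 to 8 control reads. The highest control count of any such pattern was 75 reads, for -6:10D in the WTCasΦ control of the RNP experiment with 3 enzymes. That pattern was also counted in 18 edited libraries.

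With RNPs in fwa-4, nCasΦ edited the FWA gRNA1 site most, vCasΦ less and WTCasΦ least. Efficiency was 5.30%, 6.59%, 6.14% and 7.18% in the nCasΦ libraries, replicates 1 to 4. It was 2.07%, 1.86%, 4.48% and 4.07% in the vCasΦ libraries, and 1.01%, 1.05%, 1.12% and 1.33% in the WTCasΦ libraries. No 2 enzymes overlapped, and the vCasΦ libraries were the most spread. Mean efficiency was 6.30% ± 0.794 for nCasΦ, 3.12% ± 1.35 for vCasΦ and 1.13% ± 0.143 for WTCasΦ (SD, n = 4 each). The mean of nCasΦ was 5.59 times that of WTCasΦ, a difference of 5.17 percentage points, and 2.02 times that of vCasΦ, a difference of 3.18 percentage points. The mean of vCasΦ was 2.77 times that of WTCasΦ, a difference of 1.99 percentage points. Each difference had p = 0.0286 by a two-sided exact permutation test of the means, the smallest p that 4 against 4 libraries allow. Adjusted within the 3 comparisons, the exact p stayed 0.0286, and adjusted over all 10 efficiency comparisons it was 0.0952, above the threshold of 0.05. Leaving out any WTCasΦ replicate gave an exact p of 0.0857 for vCasΦ against WTCasΦ, and leaving out nCasΦ replicate 2 or 4 gave 0.0571 for nCasΦ against vCasΦ.

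These RNP libraries fell into 2 sets by the share of reads with single-nucleotide variants and no indel. That share was 5.44% to 6.64% in replicates 1 and 2, 2.37% to 2.81% in replicates 3 and 4 and 5.82% to 6.60% in the controls, and the labels name no batch. Within replicates 1 and 2, mean efficiency with nCasΦ was 5.77 times that with WTCasΦ and 3.02 times that with vCasΦ, and vCasΦ was 1.91 times WTCasΦ. Within replicates 3 and 4 these ratios were 5.44 for nCasΦ over WTCasΦ, 1.56 for nCasΦ over vCasΦ and 3.49 for vCasΦ over WTCasΦ. The order of the enzymes was the same in both sets, and the distance of vCasΦ from its neighbours was not. Each within-set exact p was 0.333, the smallest that 2 against 2 libraries allow. With the set as a block the exact p was 0.0556 for each pair of enzymes, again the smallest possible. The part of the sets in the differences was not tested beyond these values.

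With plasmids in fwa-4, both engineered enzymes edited several times more reads than WTCasΦ, and their own libraries overlapped. Efficiency was 4.88% and 6.83% with nCasΦ, 5.44% and 6.81% with vCasΦ, and 0.379% and 0.857% with WTCasΦ. The means were 5.86% ± 1.38 for nCasΦ, 6.12% ± 0.973 for vCasΦ and 0.618% ± 0.338 for WTCasΦ (SD, n = 2 each), so nCasΦ was 9.48 times and vCasΦ 9.92 times WTCasΦ. Without WTCasΦ replicate 2 these ratios were 15.5 for nCasΦ and 16.2 for vCasΦ, and without WTCasΦ replicate 1 they were 6.84 and 7.15. The differences were 5.24 percentage points for nCasΦ against WTCasΦ and 5.51 for vCasΦ against WTCasΦ. With 2 libraries per enzyme the exact permutation p was 0.333 for each, the smallest possible. The nCasΦ mean lay 0.267 percentage points below that of vCasΦ (exact p = 1). Without nCasΦ replicate 1 it lay 0.705 above, and without vCasΦ replicate 2 it lay 0.422 above, so these libraries gave no order of the engineered enzymes. Whether the order of nCasΦ and vCasΦ differed between delivery by RNP and by plasmid was not tested.

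With plasmids in Col-0, counted edits were found with nCasΦ and vCasΦ, at under 0.1% of reads. nCasΦ libraries had 0.0301% and 0.0555%, vCasΦ libraries 0.0810% and 0.0534%, and both WTCasΦ libraries 0%. The means of the engineered enzymes were 0.0428% ± 0.0179 for nCasΦ and 0.0672% ± 0.0195 for vCasΦ (SD, n = 2 each). Against WTCasΦ the exact permutation p was 0.333 for each, the smallest possible, and nCasΦ against vCasΦ overlapped (difference -0.0244 percentage points, exact p = 0.667). An efficiency of 0 means that no pattern reached 100 reads. Without a read minimum, site indels of 3 bp or more made up 85 and 118 reads of the WTCasΦ libraries (0.00287% and 0.00450%), against 107 reads of the control (0.00366%). Editing by WTCasΦ plasmids in Col-0 was therefore not detectable above the control at this depth. The fwa-4 and Col-0 plasmid transfections are separate experiments, so genotype and experiment cannot be told apart in them. Side by side, with no read minimum, mean site indels were 124 times as frequent in fwa-4 as in Col-0 for nCasΦ and 86.3 times for vCasΦ.

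The RNP experiment with 2 genotypes compared fwa-4 and Col-0 directly. Efficiency was 0.940% and 0.726% in the fwa-4 libraries (mean 0.833% ± 0.151, SD, n = 2) and 0% in both Col-0 libraries, where no pattern reached 100 reads. The difference was 0.833 percentage points, and the exact permutation p of 0.333 is the smallest that 2 against 2 libraries allow. Without a read minimum the Col-0 libraries had 29 and 16 reads with such site indels (0.00141% and 0.000805%), against 26 reads in the Col-0 control (0.00137%). The fwa-4 control had 22 such reads. The first RNP library had an efficiency of 0.337%.

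The edits themselves were nearly all single deletions. The 29 edited libraries held 2205465 edited reads of 85291814, in 266 patterns. Of the edited reads 97.6% were in 190 single deletions, 1.20% in 36 patterns with a deletion and an insertion, and 0.805% in 21 patterns with several deletions. Insertions alone were rare, with 0.271% of edited reads in 15 patterns with several insertions and 0.0796% in 4 single insertions. 4 libraries, the WTCasΦ libraries of Col-0, had no edited reads. Of the other 25, 4 were Col-0 plasmid libraries and 21 were the fwa-4 libraries and the first RNP library. Shares of patterns are over the edited reads of a library, and shares of positions and sizes over its reads in single deletions. No pattern was counted in all 25 libraries. -4:8D and -5:10D were counted in all of the 21 libraries, and -6:11D in 20 of them. 37 patterns counted in at least 10 libraries held 79.1% of all edited reads, while 142 patterns were counted in 1 library only and held 4.71%.

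-5:10D was the most abundant pattern, with 208078 reads or 9.43% of all edited reads, followed by -4:8D with 182159 reads (8.26%), -6:11D with 106514 (4.83%) and -4:4D with 83357 (3.78%). These pooled shares weight libraries by their edited reads. -5:10D removes the last 7 protospacer bases, the 2 bases between site and gene and the first base of the gene. -4:8D begins 1 base later and ends before the gene start, but the same allele also arises with the deletion moved 1 base to the right, and the files name the leftmost placement. This holds for 65 of the 190 single deletions, all of them named at the leftmost placement. No allele stood under more than 1 label.

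No single deletion held more than 18.8% of the edited reads of any of these 21 libraries. With RNPs and 3 enzymes, -5:10D took 9.80%, 9.83%, 10.8% and 7.55% of edited reads in the nCasΦ libraries and led each of them. In the vCasΦ libraries it took 4.28%, 7.52%, 10.0% and 9.51%, and in the WTCasΦ libraries 8.92%, 6.40%, 8.73% and 6.72%. The 3 enzymes overlapped in this share. It led vCasΦ replicates 2 and 3, while -4:4D led vCasΦ replicate 1 (7.59%), -4:8D led vCasΦ replicate 4 (9.84%), and no WTCasΦ library of this experiment was led by it. The WTCasΦ libraries were led by -6:11D (11.0%), -4:8D (8.72%), -6:12D (8.80%) and -4:8D (11.1%), replicates 1 to 4. Mean shares of -5:10D were 9.51% ± 1.39 for nCasΦ, 7.83% ± 2.60 for vCasΦ and 7.69% ± 1.32 for WTCasΦ (SD, n = 4 each). The difference was 1.82 percentage points for nCasΦ against WTCasΦ (exact permutation p = 0.143), 1.68 for nCasΦ against vCasΦ (exact p = 0.286) and 0.134 for vCasΦ against WTCasΦ (exact p = 1). None passed the threshold, and these p-values adjusted over the 6 comparisons of spectra were 0.729 to 1.

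In the plasmid experiment in fwa-4, -5:10D took 14.6% and 10.2% of edited reads with nCasΦ, 5.22% and 8.97% with vCasΦ, and 18.7% and 18.8% with WTCasΦ. It led all of these libraries but vCasΦ replicate 1, which -4:8D led with 11.7%. The WTCasΦ plasmid libraries had few counted patterns, 14 and 13, against 48 to 73 in the other plasmid libraries of fwa-4. The rarest counted pattern of each had 270 and 978 reads, above the 100-read minimum. Of their reads with indels of 3 bp or more, 10482 of 10670 and 27594 of 28273 were in counted patterns. The fwa-4 libraries of the RNP experiment with 2 genotypes had 18023 and 13444 edited reads in 41 and 33 patterns. Why the WTCasΦ plasmid libraries had few patterns was not tested. In the fwa-4 libraries of the RNP experiment with 2 genotypes -5:10D took 14.4% and 11.0% and led both. The first RNP library was led by -6:12D with 13.9%, and -5:10D took 5.38% there. Across these 21 libraries -5:10D, -4:8D and -6:11D together held 13.8% to 35.8% of edited reads.

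Deletion sizes centred on 8 to 12 bp. Over the 21 libraries, deletions of 8 to 12 bp made up 48.0% to 69.6% of single-deletion reads (median 61.6%). Those of 3 to 5 bp made up 0% to 20.2% (median 12.0%), those of 13 to 20 bp 7.84% to 26.7% (median 13.8%) and those of at least 21 bp 0% to 7.99% (median 3.02%). The commonest sizes were 8 bp (median 17.7%) and 10 bp (median 17.6%), and 4 bp stood above its neighbours with a median of 8.42%, against 0.709% for 3 bp and 2.82% for 5 bp. The longest counted deletion of a library was 16 to 42 bp. Only 24 bases lie between the protospacer and the right primer, and deletions that reached into this primer site could be missed. Sizes and right ends are therefore described only within this limit. The mean deletion was 9.81 ± 0.229 bp for nCasΦ, 9.96 ± 0.323 bp for vCasΦ and 9.76 ± 0.418 bp for WTCasΦ with RNPs (SD, n = 4 each). The differences were 0.0463 bp for nCasΦ against WTCasΦ (exact permutation p = 0.857), -0.149 bp for nCasΦ against vCasΦ (exact p = 0.457) and 0.196 bp for vCasΦ against WTCasΦ (exact p = 0.486). The libraries of the 3 enzymes overlapped, and a p above the threshold does not show that sizes were the same. Means of the other 9 of the 21 libraries were 9.89 to 11.6 bp, with the highest in WTCasΦ plasmid replicate 2.

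Nearly all deletions began inside the protospacer, and most ended past its last base. Over the 21 libraries, 93.1% to 100% of single-deletion reads began in the protospacer (median 98.9%), and 4.04% to 22.1% also ended in it (median 12.9%). The first deleted base was base 14 in 15.7% to 30.9% (median 23.0%), base 15 in 9.56% to 29.2% (median 21.2%) and base 13 in 3.54% to 23.6% (median 14.4%). No counted deletion was named as beginning at base 20. All positions here are of the leftmost placement. 1:4D (55147 reads), named from base 19, can be moved up to 2 bases to the right, so its allele can also begin at base 20. Likewise -4:8D, named as ending at base 22, can be moved 1 base to the right. The last deleted base was base 22 in 12.7% to 33.2% (median 27.9%), base 23 in 14.1% to 34.9% (median 22.7%) and base 24 in 0% to 36.7% (median 16.1%). Deletions with both ends in these ranges, from base 13 to 15 and to base 22 to 24, held 25.7% to 53.5% of reads per library. The ends were thus concentrated on a few bases at either side, while the pairing of the ends varied. The right ends fall past the protospacer, in the 2 bases before FWA and its first bases.

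Base by base, the end of the protospacer was lost most often. Base 19 was deleted in 86.3% to 100% of single-deletion reads (median 92.8%) and base 20, the last of the protospacer, in 85.2% to 97.9% (median 91.4%). Toward the PAM the share fell off, with a median of 79.9% at base 15, 34.9% at base 13 and 15.9% at base 11. A PAM base was removed in 0% to 6.89% (median 0.946%), so most edited alleles kept the PAM and the first bases of the protospacer. Downstream, the medians were 80.1% at base 22, 51.6% at base 23 and 30.6% at base 24. Base 23 is the annotated start of FWA, and it was removed in 44.7% to 82.3% of single-deletion reads. With RNPs the means for base 23 were 52.2% ± 2.47 for nCasΦ, 49.1% ± 3.11 for vCasΦ and 52.0% ± 5.46 for WTCasΦ (SD, n = 4 each). With plasmids in fwa-4 they were 64.5% ± 3.44 for nCasΦ, 56.5% ± 2.40 for vCasΦ and 66.8% ± 21.9 for WTCasΦ (SD, n = 2 each). Counting every placement that gives the same allele, the RNP means became 67.6% for nCasΦ, 63.4% for vCasΦ and 68.9% for WTCasΦ.

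In the median library, most single-deletion reads had no matching bases at the junction. Microhomology, the number of bases by which a deletion can be moved without a change of the allele, was 0 bp for 38.5% to 68.1% of single-deletion reads over the 21 libraries (median 59.7%). It was 1 bp for 23.2% to 61.5% (median 32.4%), 2 bp for 0% to 12.7% (median 6.71%) and at least 3 bp for 0% to 4.62% (median 1.26%). -5:10D has none and -4:8D has 1 bp. With RNPs, the mean share without microhomology was 60.7% ± 1.21 for nCasΦ, 56.4% ± 3.13 for vCasΦ and 58.6% ± 7.12 for WTCasΦ (SD, n = 4 each), and these means were not compared by a test.

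Edited reads were spread over many patterns. The effective number of patterns, the number of equally frequent patterns that would give the same diversity, was 26.7 ± 3.60 for nCasΦ, 29.8 ± 2.81 for vCasΦ and 20.4 ± 2.98 for WTCasΦ with RNPs (SD, n = 4 each). The number of counted patterns was 72 to 100 for nCasΦ, 47 to 87 for vCasΦ and 24 to 37 for WTCasΦ. Libraries with more edited reads can have more patterns above the 100-read minimum, and this was not separated from the enzyme. The overlap of 2 libraries, the summed smaller share of each pattern, was 69.0% to 76.7% between nCasΦ libraries, 49.8% to 65.0% between vCasΦ libraries and 40.0% to 54.5% between WTCasΦ libraries. Between nCasΦ and vCasΦ libraries it was 48.7% to 71.4%, between nCasΦ and WTCasΦ libraries 52.1% to 59.6%, and between vCasΦ and WTCasΦ libraries 41.3% to 55.4%. Each of these ranges between enzymes overlapped that of the WTCasΦ libraries among themselves and that of the vCasΦ libraries among themselves. Against the nCasΦ libraries among themselves, the range between nCasΦ and vCasΦ overlapped. The ranges of nCasΦ and of vCasΦ with WTCasΦ lay wholly below it. These overlaps are descriptions, since the pairs share libraries.

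In Col-0 the edited reads came from 1 or 2 patterns per library. nCasΦ plasmid replicate 1 had -4:8D alone (861 reads), and replicate 2 had -5:10D (881 reads) and -5:7D (812 reads). vCasΦ plasmid replicate 1 had -2:8D (1319 reads) and -6:11D (1072 reads), and replicate 2 had -4:8D alone (1464 reads). The overlap of the nCasΦ pair and of the vCasΦ pair was 0%, although all 5 patterns were also counted in fwa-4. The next most frequent pattern of these libraries had at most 26 reads, under the minimum. In the fwa-4 plasmid libraries of the same enzymes 48 to 73 patterns were counted. Reads are not molecules here, and how many cells or molecules gave these patterns was not measured.

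Set beside FWA gRNA4, another guide at the same promoter, FWA gRNA1 gave longer deletions. FWA gRNA4 was transfected in the same RNP experiment with the same 3 enzymes. The study lists different amplicon primers for gRNA1 and gRNA4, so guide and amplicon cannot be told apart in this comparison. Mean deletion size was 9.84 ± 0.313 bp for gRNA1 and 8.69 ± 0.305 bp for gRNA4 (SD, n = 12 each), and the libraries, 9.45 to 10.4 bp for gRNA1 and 8.11 to 9.09 bp for gRNA4, did not overlap. The difference of 1.15 bp had a two-sided exact permutation p of 5.83e-06 with guides exchanged within enzymes, the smallest that 343000 arrangements allow. The leading pattern took 7.52% to 11.1% of edited reads with gRNA1, and a single pattern, -6:7D, took 14.4% to 25.6% with gRNA4 and led each of its libraries. Efficiency with gRNA4 was 6.06% ± 2.40 for nCasΦ, 7.00% ± 2.56 for vCasΦ and 1.54% ± 0.476 for WTCasΦ (SD, n = 4 each). With gRNA1 the nCasΦ and vCasΦ libraries did not overlap, whereas with gRNA4 they did, and the difference between the guides in this respect was not tested.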

How the data were processed

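Amplicon libraries of protoplast DNA were analysed from 1 table per library. After trimming (Trim Galore) and BWA-MEM alignment to the amplicon (BWA 0.7.17 in the submitters' processing notes), the authors exported mutation patterns from CrispRVariants, and the deposited values are read counts per pattern. The genome build of the amplicon reference is not given in the sources used here. Sites were placed on TAIR10.1.

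From the counts, editing efficiency (percentage of reads in patterns with an indel of 3 bp or more and a minimum of 100 reads), shares of edited reads and deletion positions were computed per library in Python 3.11.15 (NumPy 2.4.6, SciPy 1.17.1). Depth was 1851717 to 4057040 reads, and 95% Wilson intervals were computed for single libraries. Groups were compared by two-sided exact permutation tests over libraries at 0.05, with Benjamini-Hochberg adjustment. The functions were tested on simulated data.

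Named patterns were the 5 with the highest mean share in each group, the leading pattern of each library and any counted in every library with edited reads. Members and lists were chosen with earlier results of these data known. Alternatives were the read minimum, smallest indel, window, control subtraction, log scale, replicate block, median size and each replicate left out. The sets of replicates 1 and 2 and of replicates 3 and 4, and the setting with no read minimum in the site window, were chosen after seeing the data. No library of the guide was left out.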

Additional observations from a re-analysis of the deposited data

Results flagged for a closer look

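In the RNP experiment with 3 enzymes, 131 sets of 4 libraries were searched for a library far from the other 3, and 8 were found. The rate of about 1 in 20 by chance does not apply where the other 3 libraries are all equal. This was so for -8:19D and for lost PAM and protospacer bases. There the other 3 stood at 0% or 100%, and any other value was flagged. In vCasΦ replicate 1 -4:4D took 7.59% of edited reads, against at most 4.15% in the other vCasΦ libraries. In vCasΦ replicate 2 -2:8D took 5.32%, against at most 2.39% in the others. -8:19D was counted in 1 nCasΦ library (0.320%) and in 1 WTCasΦ library (1.13%) and in none of the other 3 libraries of each enzyme. 1 WTCasΦ library had 1.37% of single-deletion reads that had lost a PAM base, against 0% in the others. In 1 vCasΦ library 99.7% and in 1 WTCasΦ library 97.9% of single-deletion reads had lost a protospacer base, against 100% in the others. 1 vCasΦ library had 3.38% of edited reads in patterns other than single deletions, against at most 2.09% in the others.

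Indels of 1 or 2 bp near the site are outside the criterion of editing efficiency. In all libraries of 3 groups they exceeded the highest control (0.00332%), with means of 0.0526% of reads for nCasΦ RNPs in fwa-4, 0.0649% for nCasΦ plasmids in fwa-4 and 0.0423% for vCasΦ plasmids in fwa-4. Part of the libraries of 3 other fwa-4 groups exceeded it too. These were 3 of 4 libraries with vCasΦ RNPs, 2 of 4 with WTCasΦ RNPs and 1 of 2 with WTCasΦ plasmids. In the plasmid libraries of Col-0 no library exceeded the highest control. The same held for the RNP experiment with 2 genotypes and for the first RNP library.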

How the results depend on the processing

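Of 280 values under other settings, 247 kept direction and side of the threshold, 18 kept the direction but lost the call, and 15 changed sign. Of the 280, 88 belong to the 7 of 17 comparisons with 2 against 2 libraries, whose side of the threshold could not change. Of the other 192, 161 kept direction and side. These 192 also hold settings of the RNP enzyme comparisons whose smallest p is above the threshold. They are the replicate block (0.125), each library set alone (0.333) and the library-set block (0.0556). Their side was fixed in advance, so the counts do not measure how stable the calls were. All lost calls were efficiency differences with RNPs and 3 enzymes. In that experiment not every pair of same-numbered libraries deviated together (correlations of deviations -0.471 to 0.647, positive for all enzyme pairs in replicates 2 and 3), so the numbers were not taken to pair samples, although replicates 1 and 2 and replicates 3 and 4 share a library set. With the replicate block these differences stayed 5.17 (nCasΦ against WTCasΦ), 3.18 (nCasΦ against vCasΦ) and 1.99 (vCasΦ against WTCasΦ) percentage points with an exact p of 0.125, the smallest possible, and with library sets as the block 0.0556. The block gave an exact p of 0.000488 for deletion size between guides and changed no other call. Within replicates 1 and 2 the differences were 4.92, 3.98 and 0.937, and within replicates 3 and 4 5.43, 2.39 and 3.05, in the order above (exact p = 0.333). With replicates left out they were 4.88 to 5.51, 2.76 to 3.63 and 1.54 to 2.41. The plasmid difference in fwa-4 of nCasΦ against vCasΦ was -1.24 to 0.705 with replicates left out.

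Changes of sign were among differences whose exact p was above the threshold. Mean deletion size by the read-weighted median was -0.25 bp for nCasΦ and for vCasΦ against WTCasΦ (exact p = 1 each). For nCasΦ against WTCasΦ size was -0.120 bp in replicates 3 and 4 (exact p = 1) and -0.0582 to 0.251 bp with replicates left out. The share of -5:10D for vCasΦ against WTCasΦ was -1.77 percentage points in replicates 1 and 2 (exact p = 0.667) and -0.591 to 1.32 with replicates left out. For nCasΦ against vCasΦ it was -0.555 in replicates 3 and 4 (exact p = 1). The cause was not tested. The log scale could not be used where a library had 0 edited reads. Depth and the 100-read minimum limit the values in Col-0 and the controls and the number of counted patterns in libraries with few edited reads.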
